A study of Oryctolagus cuniculus with 9 samples.

Results

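The receptors described here are 9 genes through which autonomic nerves and local mediators act on the muscle of the urethra: CHRM2, CHRM3, ADRA1A, ADRA1B, ADRA1D, ADRB3, VIPR2, P2RX1 and EDNRA. They were taken by symbol from a deposited table of 28788 genes, and each of the 9 had a row of its own. The table holds gene counts from 9 RNA-seq libraries of rabbit (Oryctolagus cuniculus) urethral tissue, from work on a hydrogel stent for urethral repair. The titles give 3 libraries each the code S6, S7 or S9, followed by a number, and a library is written here as S6_2. Which treatment, time, age, strain or animal a code or number marks is not given in the sources used here, so no group is taken as the control. Since nothing says that the libraries came from separate animals, the p-values measure the spread between these libraries, which may be technical.

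In the bladder outlet and urethra, noradrenaline from sympathetic nerves contracts smooth muscle through alpha-1 adrenoceptors, which couple to Gq proteins, raise cell calcium and make the contractile proteins more sensitive to it. Acetylcholine acts through muscarinic receptors, of which M3 couples to Gq and M2 to Gi. Endothelin contracts smooth muscle through its type A receptor, and ATP through the P2X1 cation channel. Vasoactive intestinal peptide and beta adrenoceptors couple to Gs, raise cyclic AMP and relax the muscle.

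Total counts lay between 35127085 and 36832773 per library. Smooth muscle markers were present in every library, with a summed level over 18 markers of 3165 to 5432 CPM (TMM-scaled read counts relative to library size) in S6, 5409 to 16507 in S7 and 9595 to 18807 in S9. Skeletal muscle markers summed to at most 15.7 CPM in any library and nerve cell markers to at most 30.8 CPM. The skeletal muscle sum covers only 7 of 12 markers, since MYH2, CKM, TNNT3, TNNI2 and TNNT1 had no row under these symbols. In S6_4, S7_3 and S9_4, 1 library of each group, mitochondrially encoded genes took 0.243% to 0.419% of counts, against 0.910% to 1.52% in the other 6. This is bulk RNA, so more cells of a type and more RNA per cell cannot be told apart.

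Compared per gene length, as the mean FPKM (fragments relative to gene length and library size) over the 9 libraries, VIPR2 had the highest level, 11.1 FPKM. EDNRA followed at 3.79 FPKM and ADRA1D at 2.51 FPKM. P2RX1 (0.823), ADRA1B (0.605), ADRA1A (0.320), CHRM3 (0.199) and CHRM2 (0.0684) were all below 1 FPKM. The order differed by group. In S6, EDNRA was first at 3.26 ± 1.48 FPKM, VIPR2 next at 2.32 ± 1.2 FPKM and ADRA1D at 0.913 ± 0.493 FPKM. There CHRM2 (0.0228 ± 0.0231) was above CHRM3 (0.0106 ± 0.0092) with overlapping libraries. VIPR2 overlapped both EDNRA and ADRA1D in S6, while EDNRA (lowest 2.07 FPKM) lay wholly above ADRA1D (highest 1.41 FPKM). In S9, VIPR2 was first at 22.1 ± 6.93 FPKM with no overlap with ADRA1D at 4.29 ± 3.38 FPKM or EDNRA at 3.36 ± 1.25 FPKM. Neighbours in the order over all libraries overlapped in their ranges over the libraries, for example 1.08 to 29.2 FPKM for VIPR2, 2.07 to 7.22 FPKM for EDNRA and 0.428 to 7.67 FPKM for ADRA1D. The order also depends on the gene lengths behind the FPKM values, which were 26.4 kb for ADRA1A but 1.56 kb for ADRA1B and 1.86 kb for ADRA1D.

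ADRB3, the beta-3 adrenoceptor, was not detectable at this depth. It had 1 count in S6_4 and 0 counts in each of the other 8 libraries. A count of 0 allows up to 3 counts, or 0.0794 to 0.0908 CPM in these libraries, a limit that covers counting error only. ADRB3 failed the filter on low counts and was not tested, which leaves 8 tested receptors.

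**Figure D1:**
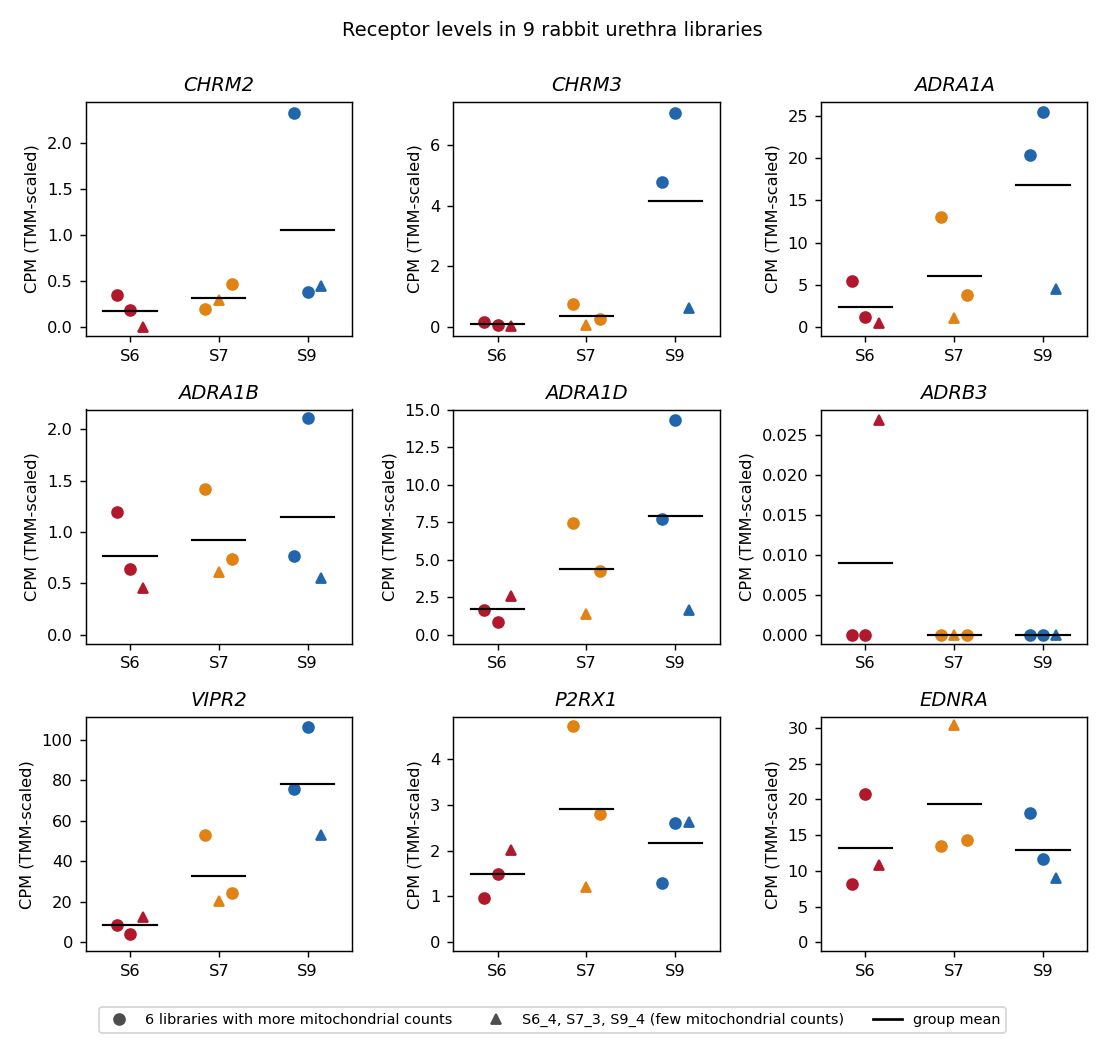
Level of each of the 9 receptors (vertical axes, TMM-scaled CPM, linear, a scale of its own in each panel) in the 3 libraries of S6, S7 and S9, with the group mean as a line. Triangles are the 3 libraries with few mitochondrial counts. All S9 points lie above all S6 points for VIPR2, CHRM3 and CHRM2, while EDNRA, P2RX1 and ADRA1B overlap between groups.

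VIPR2, the type 2 receptor for vasoactive intestinal peptide, was higher in S9 than in S6 by 9.37-fold. It had 8.56, 4.15 and 12.3 CPM in S6_2, S6_3 and S6_4. In S7_2, S7_3 and S7_4 it had 53.1, 20.2 and 24.3 CPM, and in S9_1, S9_2 and S9_4 it had 75.6, 106 and 52.7 CPM. Each S7 and each S9 library was above each S6 library, and S7_2 lay just above S9_4, so S7 and S9 overlapped. The mean was 8.32 ± 4.06 CPM in S6, 32.5 ± 17.9 CPM in S7 and 78.1 ± 26.7 CPM in S9 (SD, n = 3 each). S9 differed from S6 by a log2 fold change of 3.23 (SE 0.51, adjusted p = 0.0166 in edgeR). The receptor also differed over the 3 groups together by the edgeR F test (adjusted p = 0.0407). S7 against S6 did not pass (log2 fold change 1.97, SE 0.49, adjusted p = 0.121 in edgeR), nor did S9 against S7 (1.26, SE 0.47, adjusted p = 0.538 in edgeR). The S9 against S6 call was lost without S6_4, where the edgeR adjusted p was 0.05004, without S9_1 (0.0799), without S9_2 (0.0696) and in the 6 libraries with more mitochondrial counts (0.0584), while the log2 fold change stayed between 2.83 and 3.83 in the alternatives run. Far fewer genes over all were called in these fits too, as given further below.

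CHRM3, the Gq-coupled M3 receptor, had almost no reads in S6. It had 6, 2 and 1 counts in S6_2, S6_3 and S6_4, or 0.163, 0.0606 and 0.0268 CPM. S7_2, S7_3 and S7_4 held 28, 2 and 10 counts, or 0.764, 0.0584 and 0.272 CPM. S9_1 and S9_2 held 181 and 258 counts, or 4.79 and 7.07 CPM, and S9_4 held 23 counts, or 0.609 CPM. The S9 libraries were all above the S6 libraries, but S9_4 lay below S7_2. CHRM3 was called higher in S9 than in S6, with a log2 fold change of 5.58 (SE 1.25, adjusted p = 0.0290 in edgeR). The size of this difference rests on 9 counts over the S6 libraries, and its value depends on the prior count of the fit. The call was lost without S6_3 (edgeR adjusted p = 0.0713), S6_4 (0.0919), S9_1 (0.0988) or S9_2 (0.0926), in the 6 libraries with more mitochondrial counts (0.0585), in limma-voom (adjusted p = 0.0720) and in limma-trend on log2(FPKM + 1) (adjusted p = 0.0691). In these fits without 1 library and in the 6 libraries, fewer genes over all were called too, as given further below. The log2 fold change ran from 0.57, on the log2(FPKM + 1) scale, to 6.48 over the alternatives. S9 against S7 had a log2 fold change of 3.49 (SE 1.09, adjusted p = 0.538 in edgeR), and S7 against S6 of 2.09 (SE 1.16, adjusted p = 0.402 in edgeR).

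CHRM2, the Gi-coupled M2 receptor, was scarcer and rested on 1 library. It had 13, 6 and 0 counts in S6_2, S6_3 and S6_4, 7, 10 and 17 counts in S7_2, S7_3 and S7_4, and 88, 14 and 17 counts in S9_1, S9_2 and S9_4. S9_1 stood at 2.33 CPM, and none of the other 8 libraries was above 0.463 CPM. The S9 and S6 libraries did not overlap, but the gap was between 0.383 CPM in S9_2 and 0.352 CPM in S6_2. The difference did not pass (log2 fold change 2.55, SE 1.18, adjusted p = 0.178 in edgeR), and its log2 fold change ran from 0.15 to 4.21 over the alternatives. Of the reads of both muscarinic genes in a library, CHRM3 took 67.3% in S9_1 (exact Clopper-Pearson 95% interval 61.3% to 72.9%), 94.9% in S9_2 (91.5% to 97.2%) and 57.5% in S9_4 (40.9% to 73.0%). In S7_2 it took 80.0% (63.1% to 91.6%), against 37% in S7_4 and 16.7% in S7_3. S6_2 and S6_3 gave 31.6% (12.6% to 56.6%) and 25.0% (3.19% to 65.1%), and S6_4 had only 1 read of the pair. The intervals cover counting error only. CHRM3 was thus the larger of the pair by reads in the 3 S9 libraries and in S7_2, but not in S7_3, S7_4, S6_2 or S6_3. The interval took in equal shares in S9_4, S6_2, S6_3, S6_4 and S7_4 (19.4% to 57.6%), so the order is not settled there. The gene lengths behind the FPKM values, 7.80 kb for CHRM3 and 7.69 kb for CHRM2, are close.

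ADRA1A, the alpha-1A adrenoceptor that carries much of the noradrenergic contraction of the urethra, varied widely within each group. It had 5.39, 1.18 and 0.456 CPM in S6_2, S6_3 and S6_4, 13.1, 1.11 and 3.81 CPM in S7_2, S7_3 and S7_4, and 20.4, 25.4 and 4.5 CPM in S9_1, S9_2 and S9_4. S9_4 lay below S6_2, so the groups overlapped. The log2 fold change for S9 against S6 was 2.84 (SE 1.13) and did not pass (edgeR adjusted p = 0.124). DESeq2 called it (adjusted p = 0.0186), as did edgeR with a term for the mitochondrial class (adjusted p = 0.0290). Over the alternatives the log2 fold change ran from 0.57, on the log2(FPKM + 1) scale, to 4.36.

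ADRA1D, the alpha-1D adrenoceptor, known mainly from arteries and the bladder, had 1.65, 0.848 and 2.57 CPM in S6_2, S6_3 and S6_4. It had 7.48, 1.40 and 4.22 CPM in S7_2, S7_3 and S7_4 and 7.70, 14.4 and 1.62 CPM in S9_1, S9_2 and S9_4. S9_1 and S9_2 were above every S6 library, while S9_4 was below S6_2 and S6_4. With S9_4 in the fit the difference between S9 and S6 did not pass (log2 fold change 2.22, SE 0.84, adjusted p = 0.113 in edgeR), and without it the log2 fold change was 2.71 (edgeR adjusted p = 0.0498). DESeq2 called it with all 9 libraries (adjusted p = 0.0263).

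ADRA1B, the alpha-1B adrenoceptor, was low in all groups. It had 1.19, 0.636 and 0.456 CPM in S6_2, S6_3 and S6_4, 1.42, 0.614 and 0.735 CPM in S7_2, S7_3 and S7_4, and 0.768, 2.11 and 0.556 CPM in S9_1, S9_2 and S9_4. The 3 groups overlapped, and S9 against S6 gave a log2 fold change of 0.58 (SE 0.67, adjusted p = 0.597 in edgeR), which turned to -0.20 without S9_2.

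**Figure D2:**
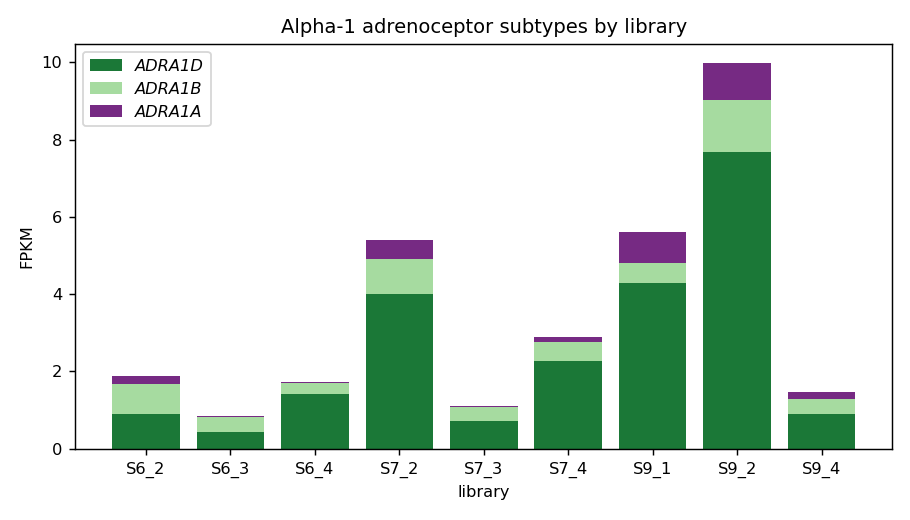
FPKM of ADRA1D, ADRA1B and ADRA1A stacked for each of the 9 libraries (vertical axis FPKM, from 0). ADRA1D is the largest part of each bar, and the bars of S9_4 and S7_3 are the lowest of their groups.

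By FPKM the alpha-1 subtypes summed to 1.88, 0.854 and 1.73 in S6_2, S6_3 and S6_4, to 5.39, 1.12 and 2.90 in S7_2, S7_3 and S7_4, and to 5.61, 9.98 and 1.47 in S9_1, S9_2 and S9_4. ADRA1D took the largest share in each library, from 47.8% in S6_2 to 81.7% in S6_4. ADRA1B took 41.2% and 45.0% in S6_2 and S6_3, but 9.13%, 13.5% and 25.6% in S9_1, S9_2 and S9_4 and 17.3% in S6_4, so its shares overlapped between S6 and S9. The ADRA1A share was 14.3%, 9.61% and 12.2% in S9_1, S9_2 and S9_4, against 11%, 4.93% and 1.02% in S6_2, S6_3 and S6_4. These shares depend on the lengths given above, and by reads the order differed. Over all libraries ADRA1A had 2780 counts, ADRA1D 1538 and ADRA1B 309. ADRA1A had 770, 928 and 170 counts in S9_1, S9_2 and S9_4, against 291, 524 and 61 for ADRA1D. Only in S6_4, S7_3 and S7_4 did ADRA1D have more reads than ADRA1A.

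P2RX1, the ATP-gated channel of smooth muscle, had 0.975, 1.48 and 2.01 CPM in S6_2, S6_3 and S6_4, 4.72, 1.2 and 2.81 CPM in S7_2, S7_3 and S7_4, and 1.30, 2.60 and 2.62 CPM in S9_1, S9_2 and S9_4. The groups overlapped, and the highest value was in S7_2. The log2 fold change was 0.54 for S9 against S6 (SE 0.56, adjusted p = 0.550 in edgeR) and 0.96 for S7 against S6 (SE 0.56, adjusted p = 0.426 in edgeR).

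EDNRA, the endothelin type A receptor, had close means in S9 and S6, 12.9 ± 4.72 and 13.2 ± 6.64 CPM. It had 8.10, 20.7 and 10.8 CPM in S6_2, S6_3 and S6_4, 13.5, 30.4 and 14.3 CPM in S7_2, S7_3 and S7_4, and 18.2, 11.6 and 9.0 CPM in S9_1, S9_2 and S9_4. The groups overlapped, and S6_3 and S7_3 were the highest. Its log2 fold change for S9 against S6 was -0.03 (SE 0.45, adjusted p = 0.973 in edgeR), with a sign that changed between alternatives. S6_3 and S7_3 were also the libraries of their groups with the highest summed fibroblast markers, at 45313 and 105577 CPM, whereas in S9 the highest sum was in S9_2 at 53352 CPM. The part of these cells in the EDNRA values was not tested. Per length, EDNRA was above VIPR2 in S6_3 (4.92 against 1.08 FPKM) and S7_3 (7.22 against 5.26 FPKM), and VIPR2 was the higher of the pair in the other 7 libraries.

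**Figure D3:**
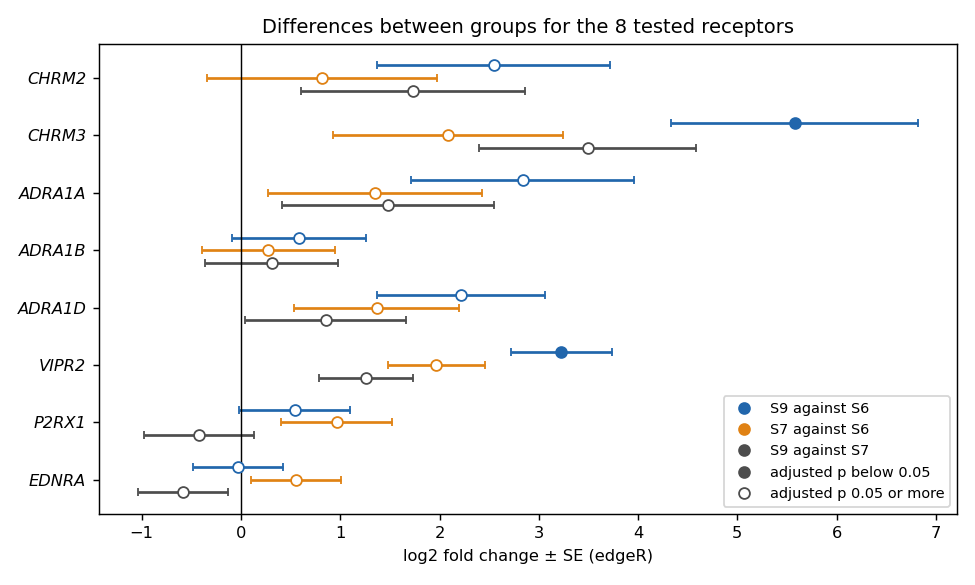
Log2 fold change with its SE (horizontal axis, edgeR) for the 8 tested receptors in the 3 comparisons of groups of 3 libraries. Filled points have an adjusted p below 0.05, which holds for VIPR2 and CHRM3 in S9 against S6 alone.

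In S9 against S6, 2 of the 8 tested receptors were called higher and 0 lower at an edgeR adjusted p below 0.05, where 12.4% of all 17102 tested genes were called and 6.02% were called higher. An unadjusted p below 0.05 was found for 4 of the 8, against 31.2% of all tested genes, and the fold change was above 0 for 7, against 49.3%. The libraries of S9 lay wholly above those of S6 for 3 of the 8, against 18.6%. The median log2 fold change was 2.38 over the 8 receptors and -0.01 over all tested genes. Each of these counts leaves out ADRB3, and the low receptors passed the filter through the libraries in which they are high. In S7 against S6, 0 of the 8 were called by edgeR, against 0.111% of all genes. An unadjusted p below 0.05 was found there for 1 of the 8 (VIPR2), against 17.1%. DESeq2 called 1 of the 8 and limma-voom 0. The 0.111% is the share by edgeR alone. DESeq2 and limma-voom each called more genes over all in this comparison, as given further below. The S7 libraries lay above those of S6 for VIPR2 alone, against 10.7% of all genes, the fold change was above 0 for 8 of 8, against 48.9%, and the median log2 fold change was 1.16 over the receptors. In S9 against S7, 0 of the 8 were called by edgeR, DESeq2 or limma-voom, as were 0% of all genes by edgeR. CHRM3 and VIPR2 had an unadjusted p below 0.05, against 9.21% of all genes. The groups overlapped for each receptor, where S9 lay wholly higher for 8.36% of all genes. The fold change was above 0 for 6 of the 8, against 50.1%, and the median was 1.06. The comparisons share libraries, so their values are not independent of each other. Over the 3 groups VIPR2 alone was called by the F test, against 2.43% of all genes. The mean CPM was lowest in S6 and highest in S9, with S7 between, for 6 of the 8 receptors, all but P2RX1 and EDNRA, which also holds for 27.1% of all genes.

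The receptors were then read against the smooth muscle markers. MYH11, the smooth muscle myosin heavy chain, had 856 ± 434 CPM in S6 against 4363 ± 1376 CPM in S9 (log2 fold change 2.35, edgeR adjusted p = 0.0398), and CNN1, calponin of smooth muscle, 108 ± 32.2 against 463 ± 159 CPM (2.10, edgeR adjusted p = 0.0299). Of the 18 markers 9 were called higher in S9 than in S6, against 6.02% of all tested genes, and 0 lower, with a median of 1.91. The mean log2 level of these markers was higher in S9 than in S6 by 1.79, in S7 than in S6 by 1.22 and in S9 than in S7 by 0.57. For each library the mean log2 level of the markers was subtracted from the log2 level of a receptor, and a relative level below 0 means that the receptor was below the markers.

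On this relative scale VIPR2 and CHRM3 were the receptors, 2 of 8, whose S9 libraries all lay above their S6 libraries, against 0.491% of all tested genes. The subtraction moved the median difference of all tested genes to -1.79 (S9 minus S6). The 0.491% is therefore low by the scale itself, and no contrast with the 2 receptors is read from it. The relative level of VIPR2 was -4.09, -4.54 and -2.91 in S6_2, S6_3 and S6_4, -3.23, -2.85 and -3.24 in S7_2, S7_3 and S7_4, and -2.38, -2.34 and -2.30 in S9_1, S9_2 and S9_4. The S9 libraries were above all others, with an SD of 0.039 among them, while S6 and S7 overlapped. S9 exceeded S6 by 1.51 against the 18 markers. Against MYH11 alone the difference was 0.89 and the groups overlapped, with S6_4 at -5.64 and S7_3 at -5.39 above the S9 libraries at -5.92, -5.73 and -5.77. CHRM3 was at -6.34, -6.24 and -8.61 in S9_1, S9_2 and S9_4, above the range of -10.34 to -9.25 in S7 and of -10.15 to -9.4 in S6. With 1 to 6 counts per S6 library its relative level there is set largely by the prior count.

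For the other receptors the relative level in S9 was near that in S6, higher with overlap, or lower. ADRA1D had a mean relative level of -6.06 ± 1.08 in S9 and -6.11 ± 0.85 in S6, a difference of 0.053. ADRA1A was at -4.83 ± 0.87 and -6.19 ± 1.38, with overlapping libraries. For EDNRA the relative level was -4.93 ± 0.55 in S9 and -3.17 ± 0.97 in S6, and for ADRA1B it was -8.53 ± 0.50 and -7.18 ± 0.31, and in both genes each S9 library was below each S6 library. This also held for 77.5% of all tested genes, whose median difference on this scale was -1.79 (S9 minus S6), so nothing about these receptors is read from it. P2RX1 was at -7.48 ± 0.81 in S9 and -6.21 ± 0.86 in S6 and overlapped. The relative levels were not tested.

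**Figure D4:**
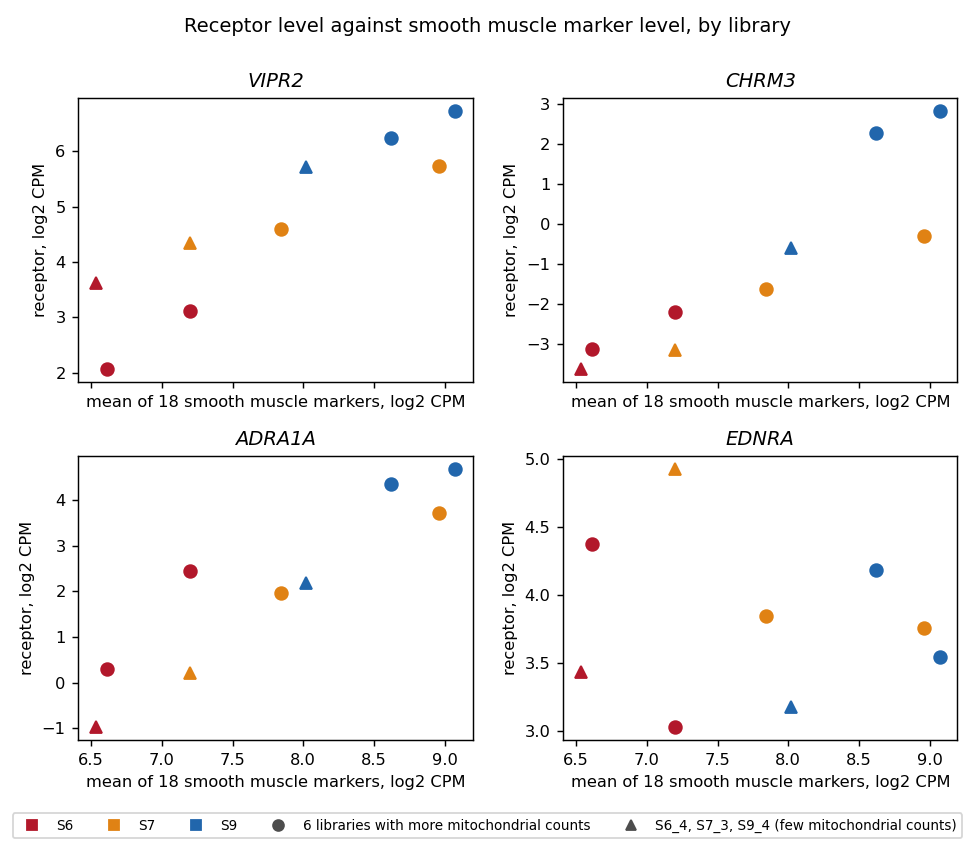
Log2 CPM of VIPR2, CHRM3, ADRA1A and EDNRA (vertical axes) against the mean log2 CPM of 18 smooth muscle markers (horizontal axes) in the 9 libraries, coloured by group, with triangles for the libraries with few mitochondrial counts. VIPR2, CHRM3 and ADRA1A are high where the markers are high, and EDNRA is not.

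The libraries with few mitochondrial counts were low in several receptors. CHRM3, ADRA1A and ADRA1B were each lowest, within each of the 3 groups, in S6_4, S7_3 and S9_4, which holds for 3 of the 8 tested receptors and for 5.46% of all tested genes. VIPR2 and ADRA1D were lowest there in S7 and S9 but highest in S6_4. The summed smooth muscle markers were also lowest of their group in S6_4 (3165 CPM), S7_3 (5409 CPM) and S9_4 (9595 CPM). The part of either in the receptor values was not tested. Without these 3 libraries the log2 fold change for S9 against S6 was 3.83 for VIPR2, 5.67 for CHRM3, 2.80 for ADRA1A and 3.13 for ADRA1D, and 0 receptors were called by edgeR. In that fit 4 of the 8 had an unadjusted p below 0.05, against 25.2% of all genes.

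The ligands of these receptors were mostly scarce. VIP, the peptide that VIPR2 binds, had 0 counts in each of the 9 libraries, which allows up to 3 counts in each, and ADCYAP1, which encodes the related peptide PACAP, had 15 counts in S6 libraries alone. EDN1, the endothelin made mainly by endothelium, was at 13.3 ± 5.85 CPM in S6, 12.8 ± 8.64 CPM in S7 and 21.6 ± 8.07 CPM in S9 (S9 against S6 edgeR adjusted p = 0.406). CHAT, which makes acetylcholine, ranged from 1 count in S7_2 to 479 counts in S6_2. Of 25 genes of ligands and transmitter handling 15 were tested, with a median log2 fold change of 0.70 in S9 against S6. Of the 15, 2 were called higher and 0 lower, where 12.4% of all tested genes were called and 6.02% called higher. The 2 called were SLC6A2, the noradrenaline transporter, at 6.95 ± 2.07 against 1.67 ± 0.691 CPM (log2 fold change 2.06, edgeR adjusted p = 0.0390), and MAOB, a monoamine oxidase, at 84.0 ± 24.6 against 35.8 ± 3.31 CPM. MAOA, at 52.5 ± 9.43 against 24.5 ± 10.3 CPM, and ECE1, which cleaves endothelin precursors, at 283 ± 23.8 against 180 ± 22.1 CPM, did not pass (edgeR adjusted p = 0.0748 and 0.0758). SOX10, a Schwann cell factor, was also called higher in S9, at 19.1 ± 2.15 against 3.76 ± 1.68 CPM (edgeR adjusted p = 0.0253), and the Schwann cell markers summed to 263 to 360 CPM in S9 and 64.6 to 217 CPM in S6. TUBB3, a neuronal tubulin, was at 2.82 ± 2.60 against 3.22 ± 0.0868 CPM (log2 fold change -0.19), unlike most nerve cell markers. Of the 6 tested nerve cell markers the fold change was above 0 for 5, against 49.3% of all tested genes (median log2 fold change 1.47). Among them 1, UCHL1, was called higher. The part of nerve tissue was not tested.

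Relatives of the 9 receptors had a median near that of all genes. Of 17 other genes of the same families 13 were tested, with a median log2 fold change of 0.084 in S9 against S6. Of the 13, 2 were called higher and 0 lower, where 12.4% of all tested genes were called and 6.02% called higher. ADCYAP1R1, the PACAP receptor, was at 19.4 ± 2.97 against 8.5 ± 1.49 CPM (log2 fold change 1.19, edgeR adjusted p = 0.0371), and ADRA2B, the alpha-2B adrenoceptor, at 11.4 ± 4.87 against 2.06 ± 1.65 CPM (2.46, edgeR adjusted p = 0.0441). VIPR1, the type 1 receptor for vasoactive intestinal peptide, was at 13.4 ± 3.47 against 2.79 ± 3.08 CPM and did not pass (edgeR adjusted p = 0.102), and P2RX2 was at 1.47 ± 0.375 against 0.725 ± 0.515 CPM. EDNRB, the endothelin type B receptor, was at 18 ± 2.72 CPM in S6, 18.5 ± 2.73 CPM in S7 and 19.1 ± 6.73 CPM in S9. ADRB1, the beta-1 adrenoceptor, was detected where ADRB3 was not, at 1.98 ± 0.870 CPM in S6 against 1.93 ± 0.535 CPM in S9.

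Among 28 receptors of other ligands that act on smooth muscle, 26 were tested, with a median of 0.0084 in S9 against S6. Of the 26, 1 was called higher and 1 lower, where 12.4% of all tested genes were called and 6.02% called higher. BDKRB2, the bradykinin B2 receptor, was higher, at 21.8 ± 6.0 against 9.49 ± 1.03 CPM (log2 fold change 1.2, edgeR adjusted p = 0.0224). ADORA2B, the adenosine A2B receptor, was lower, at 8.76 ± 1.07 against 30.1 ± 8.66 CPM (-1.78, edgeR adjusted p = 0.0164). PTGER3, a prostaglandin E2 receptor, was at 2.62 ± 0.990 against 0.480 ± 0.310 CPM and P2RY6, a receptor for UDP, at 2.22 ± 0.365 against 9.48 ± 7.62 CPM, and neither passed (edgeR adjusted p = 0.0525 and 0.0527).

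**Figure D5:**
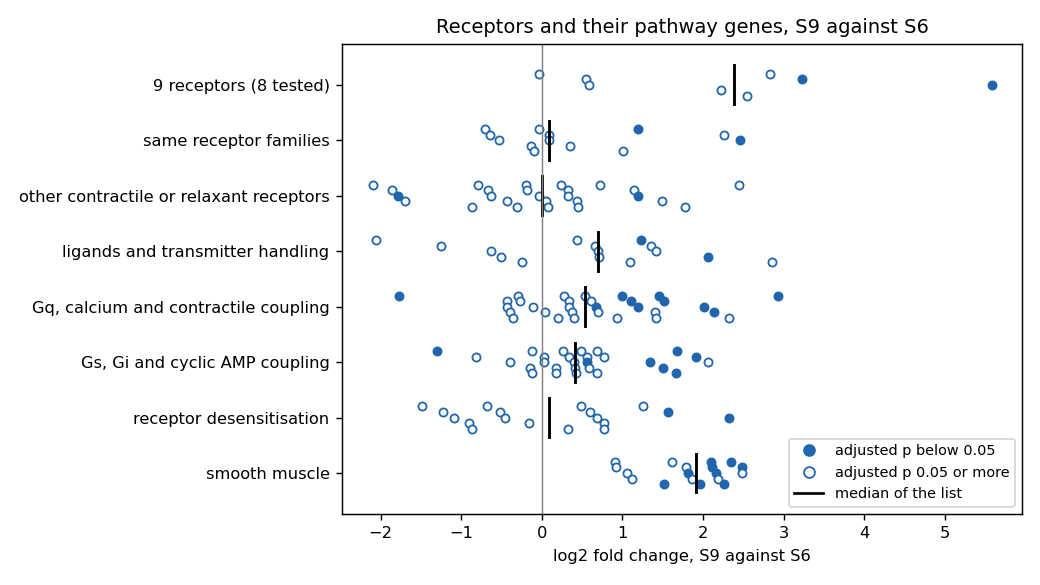
Log2 fold change of S9 against S6 (horizontal axis) for the 8 tested receptors, for the tested genes of 6 pathway lists and for 18 smooth muscle markers. Each point is a gene, filled where the adjusted p was below 0.05, and the line is the median, 2.38 for the receptors and 1.91 for smooth muscle.

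Downstream of the contractile receptors, 31 of 32 genes of Gq, calcium and contractile coupling were tested (median 0.54 in S9 against S6). Of the 31, 9 were called higher and 1 lower, where 12.4% of all tested genes were called and 6.02% called higher. RYR3, a calcium release channel, was at 10.8 ± 5.98 against 1.42 ± 0.203 CPM (log2 fold change 2.93, edgeR adjusted p = 0.0221). CACNA1C, the L-type calcium channel, was at 36.5 ± 8.97 against 12.8 ± 0.866 CPM, and ROCK2, a kinase that promotes contraction, at 197 ± 31.1 against 91.6 ± 12.8 CPM. PLCB2, a phospholipase C known from blood cells, was lower, at 6.99 ± 1.40 against 23.9 ± 15.2 CPM. The leukocyte markers summed to 283 to 547 CPM in S9 and 4803 to 8031 CPM in S6, with PTPRC at 18.6 ± 6.61 against 112 ± 103 CPM. Of these 12 markers 11 were called lower in S9 than in S6, where 12.4% of all tested genes were called in either direction. The part of leukocytes in the lower genes was not tested.

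On the side of cyclic AMP, which VIPR2 raises and CHRM2 lowers, 28 of 30 genes were tested (median 0.42 in S9 against S6). Of the 28, 6 were called higher and 1 lower, where 12.4% of all tested genes were called and 6.02% called higher. PDE3A, a phosphodiesterase, was at 45.8 ± 10.04 against 12.1 ± 5.05 CPM (log2 fold change 1.92, edgeR adjusted p = 0.0227), the adenylyl cyclase ADCY3 at 44.2 ± 3.98 against 17.4 ± 5.02 CPM, and the G protein GNAZ at 17.8 ± 3.62 against 5.64 ± 0.773 CPM. PDE4B, a phosphodiesterase abundant in leukocytes, was lower, at 14.9 ± 2.23 against 36.6 ± 11.9 CPM (-1.30, edgeR adjusted p = 0.0203). Of 20 genes of receptor desensitisation 18 were tested (median 0.084). RGS5, a regulator of G protein signalling typical of pericytes, and RGS6 were called higher and 0 genes lower, against 6.02% of all tested genes called higher. RGS5 was at 812 ± 238 against 275 ± 68.9 CPM and RGS6 at 22 ± 11.6 against 4.40 ± 0.0639 CPM. RGS2, which limits Gq signals, was at 45.7 ± 13.9 against 97.5 ± 42.5 CPM and the receptor kinase GRK3 at 10.3 ± 2.15 against 28.8 ± 21.9 CPM, and neither passed (edgeR adjusted p = 0.0552 and 0.0765). In each of these 6 lists 0 genes were called by edgeR in S7 against S6 or in S9 against S7, where 0.111% and 0% of all genes were called. The 6 lists had from 0 (relatives of the receptors) to 8 (Gq, calcium and contractile coupling) genes with an unadjusted p below 0.05 in S7 against S6, and from 1 to 4 in S9 against S7.

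Where 6.02% of all tested genes were called higher in S9 than in S6, so were some markers of other cell types that can hold these receptors. They were 3 of 9 for pericytes (NOTCH3, CSPG4 and RGS5), with sums of 675 to 872 CPM in S6 and 1379 to 1953 CPM in S9, 3 of 9 for Schwann cells (SOX10, NGFR and FOXD3), 2 of 10 for endothelium (ROBO4 and CLDN5), and 1 each for fibroblasts (MFAP5, of 10), epithelium (KRT15, of 12), interstitial cells (ANO1, of 5), nerve cells (UCHL1, of 6 tested), fat cells (LIPE, of 5 tested) and skeletal muscle (NEB, of 5 tested). The single called genes of epithelium and fat cells went against most of their lists. The fold change was above 0 for 4 of 12 epithelial markers (median log2 fold change -0.27). Among fat cell markers it was above 0 for 1 of 5 tested (median -0.42). It was above 0 for 8 of 9 pericyte, 8 of 9 Schwann cell, 10 of 10 endothelial and 9 of 10 fibroblast markers. The same held for 4 of 5 interstitial cell, 5 of 6 nerve cell and 3 of 5 skeletal muscle markers tested. The part of these cells in the receptor values was not tested. PECAM1 of endothelium was at 238 ± 66.4 against 219 ± 36.1 CPM, KIT of interstitial cells at 14.8 ± 4.60 against 14.9 ± 2.89 CPM, COL1A1 of fibroblasts at 12113 ± 2022 against 9854 ± 2708 CPM, and KRT5 of basal epithelium at 455 ± 192 against 559 ± 81.3 CPM, and none passed. ADIPOQ of fat cells, in which ADRB3 is known from rodents, was detected, with 263 ± 39.4 CPM in S6 against 197 ± 94.8 CPM in S9. ACTA1 of skeletal muscle was at 1.93 ± 2.65 against 2.51 ± 2.16 CPM.

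The genes whose log2 levels were most like those of each receptor over the 9 libraries were listed, among 13739 genes with a symbol and by Pearson's r, which is given as a description. For VIPR2 they were MPP2 (r = 0.990), ARHGEF17 (0.990) and SKI (0.984). For CHRM3 they were MAP3K3 (0.989), PPP2R5E (0.982) and KLHL20 (0.981), and for CHRM2 DUSP9 (0.953), DIXDC1 (0.938) and LATS1 (0.937). For ADRA1A the genes given here are SMAD7 (0.975) and PLN (0.975), ADRA1D was most like AOC2 (0.975), MAN2A2 (0.974) and LTBP1 (0.968), and ADRA1B like ATG16L1 (0.928), HYDIN (0.925) and ENG (0.918). For EDNRA the genes were CMSS1 (0.953), MMP11 (0.944) and S1PR2 (0.942), and for P2RX1 NSMF (0.897), KRBOX1 (0.880) and ABCF3 (0.874). No gene stood among these for more than 1 receptor. Each r was picked as among the highest of 13739 over only 9 libraries, which makes it high in part by the picking. No partner of a receptor is read from it.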

How the data were processed

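The 9 libraries were made from polyadenylated RNA of the rabbit urethra, 3 per group. The authors deposited raw counts per gene and FPKM values, which equal the count divided by column total and gene length (172961 of 172961 values above 0, relative tolerance 1e-04), and lengths were taken from them. Per the submitters' processing notes, fastp, HISAT2 and HTSeq were used. Their versions, the build and the strand setting were not given in the sources used here, so overlapping genes cannot be told apart.

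Of 12867 LOC rows, 8417 gene IDs were found in the RefSeq table for mOryCun1.1 and 515 took its symbol. Genes were kept by filterByExpr (minimum count 10, total 15), which left 17102. Counts were TMM-scaled and fitted in 1 model of 3 groups by edgeR's robust quasi-likelihood test (edgeR 4.0.16, R 4.3.3), with Benjamini-Hochberg adjustment over all genes and a threshold of 0.05. Scripts were tested on simulated data. Log2 levels used a prior count of 2. Alternatives used DESeq2 1.42.0 and limma 3.58.1 (voom with sample weights, or trend on log2 FPKM).

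The 9 receptors, 17 lists and tests were chosen with earlier results of these data known. Named genes were the receptors, the 4 genes of each pathway list with the smallest F-test p, fixed cell markers, and the 3 genes most like each receptor. EDN1, EDNRB, ADRB1, VIP, ADCYAP1, CHAT, P2RX4 and the called markers of other cell types were named outside this rule, after their values were seen. Some genes under these rules are not reported here.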

Additional observations from a re-analysis of the deposited data

How the results depend on the processing

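The fold changes of VIPR2, CHRM3, CHRM2, ADRA1A and ADRA1D were positive in each alternative that tested them, in all 3 comparisons, while the calls were less stable. In S9 against S6, edgeR called 2115 genes, DESeq2 4112, limma-voom 4064, and edgeR 7 in the 6 libraries with more mitochondrial counts, with 0 to 2076 when 1 library was left out (0 without S9_1, 4 without S9_2, 89 without S6_4, 1025 without S6_3 and 1197 without S7_4). Of the receptors 2 were called, against 4 by DESeq2, 1 each by limma-voom, limma-trend on log2(FPKM + 1) and a filter of at least 1 CPM in 3 libraries (which removed CHRM3 and CHRM2 from the test), and 0 in the 6 libraries. Leaving out 1 library gave 0 to 3, with 0 without S6_4, S9_1 or S9_2, 1 without S6_3 and 3 without S9_4. In S7 against S6, 19 genes were called, against 1417 by DESeq2, 308 by limma-voom, 55 and 36 by limma-trend on FPKM with pseudocounts of 1 and 0.1, 4 with a term for the mitochondrial class, and 0 in the 2 groups alone or the 6 libraries, with 0 to 10 when 1 library was left out. DESeq2 called 1 receptor there, VIPR2 (adjusted p = 0.00253). In S9 against S7, DESeq2 called 123 genes and edgeR 1 in the 6 libraries, with 0 to 1 when 1 library was left out. The F test called 1 receptor, against 2 by DESeq2 and with the mitochondrial term, 0 in the 6 libraries and 0 to 2 when 1 library was left out, with 0 without S6_2, S6_3, S6_4, S7_4, S9_1 or S9_2. The causes were not tested.

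The deviations of libraries with the same number correlated from -0.065 to 0.138, not above 0.1 in every pair, so the number was not used as a pairing, although 6 of 9 libraries correlated best with their own number. With a replicate block 16 genes were called in S9 against S6 and 1 in S7 against S6, and 0 receptors in S9 against S6 (adjusted p = 0.0592 for VIPR2 and 0.0873 for CHRM3 in edgeR) or by the F test, with 3655 genes at an unadjusted p below 0.05 in S9 against S6.

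The signs of fold changes turned only for receptors that were not called. EDNRA in S9 against S6 was 0.26 in limma-voom, 0.053 and 0.074 in limma-trend on FPKM with pseudocounts of 1 and 0.1, 0.13 with the replicate block, 0.047 in the 6 libraries, 0.47 without S6_3, 0.043 without S9_2 and 0.19 without S9_4. In the 6 libraries it was -0.051 for S7 against S6 and 0.098 for S9 against S7. ADRA1B was -0.20 in S9 against S6 and -0.48 in S9 against S7 without S9_2, and -0.17 in S7 against S6 without S7_2, and P2RX1 was 0.12 in S9 against S7 without S7_2. Of 192 alternative values of the relative levels 188 moved by less than the SD, and the others were against MYH11 alone, 0.89 for VIPR2 and -1.97 for ADRA1B in S9 against S6, and 0.20 and -0.97 in S9 against S7. The relative differences changed sign in 26 of the 192, among them 11 for ADRA1D and 9 for CHRM2 and 0 for VIPR2. Over all libraries left out in turn, ADRA1B ran from -0.20 to 1.06 in S9 against S6, from -0.17 to 0.76 in S7 against S6 and from -0.48 to 0.76 in S9 against S7, EDNRA from -0.34 to 0.47 in S9 against S6, and P2RX1 from -0.79 to 0.12 in S9 against S7. CHRM2 and CHRM3 are limited by depth, with at most 13 counts in an S6 library.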

Other observations

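P2RX4, another ATP-gated channel of the same family, was highest in the same 3 libraries that had few mitochondrial counts. It had 279, 153 and 172 counts in S6_4, S7_3 and S9_4, and from 13 to 25 counts in the other 6. This gene was picked after its values were seen, and S9 against S6 gave a log2 fold change of -0.65 (SE 1.36, adjusted p = 0.789 in edgeR). CHAT differed widely within groups, with 1, 7 and 419 counts in S7_2, S7_3 and S7_4 and 175, 69 and 247 counts in S9_1, S9_2 and S9_4.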
